A study of Mus musculus with 9 samples.

Results

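The CD28 family comprises the receptors Cd28 and Icos, which add a costimulatory signal to that of the T cell receptor, and Ctla4, Pdcd1 and Btla, which restrain it. The rows of these 5 genes were taken by symbol from the deposited count table of 48663 named entries, and all 5 passed the filter on low counts, as did 15738 genes in all. RNA had been sequenced from virus-specific memory T cells of mouse spleen, sorted with peptide-MHC tetramers at day 30 of an infection with lymphocytic choriomeningitis virus (LCMV), Armstrong strain. CD4 ThpokAD cells (3 libraries) bound the class II tetramer I-Ab with the GP66 peptide and came from Ox40-Cre+ Thpokfl/fl mice. CD8 control cells, also 3 libraries, were positive for H-2Db, a class I molecule, loaded with the GP33 peptide and came from Ox40-Cre- mice. CD4 control cells (3 libraries) bound the GP66 tetramer and came from Ox40-Cre- mice. Ox40-Cre acts in cells that switch on Ox40, a receptor that CD4 T cells gain on activation, so that Thpok (encoded by Zbtb7b), the factor that directs cells to the CD4 lineage, is lost after activation and not during development. Only the ThpokAD mice carried Cre, the labels name no Thpok allele for the controls, and lineage, peptide and tetramer class go together in the CD8 control group, so these cannot be told apart. Age and sex of the mice, and whether the libraries of a group came from separate animals, were not stated in the labels, so each p-value reflects no more than the spread between these libraries, which may be technical.

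CD28 is carried by resting T cells and binds CD80 and CD86 on antigen-presenting cells. ICOS appears after activation, binds ICOSL and is best known for its part in follicular help to B cells. CTLA-4 competes with CD28 for CD80 and CD86, binds them more tightly and can strip them from the presenting cell. PD-1, the product of Pdcd1, binds PD-L1 and PD-L2 and recruits a tyrosine phosphatase. BTLA has a ligand outside the B7 group, the TNF receptor family member HVEM, encoded by Tnfrsf14.

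Library totals were 16664474 to 38981516 counts, the highest in CD8 control replicate 3. Zbtb7b was at 0.698 to 0.875 CPM in CD4 ThpokAD, at 18.8 to 24.0 CPM in CD8 control, and at 38.5 to 48.9 CPM in CD4 control, so the targeted gene went with the label in every library. Cd3e was detected at 541 CPM or more in all 9 libraries. Cd4 was at 551 to 679 CPM in CD4 ThpokAD, at 0.222 to 2.26 CPM in CD8 control, and at 1295 to 1409 CPM in CD4 control. Markers of the CD8 lineage stood above CD4 control in CD4 ThpokAD: Cd8a was at 34.2 to 64.5 CPM in CD4 ThpokAD, at 743 to 913 CPM in CD8 control, and at 2.74 to 4.20 CPM in CD4 control. Cd8b1 was at 40.7 to 70.2 CPM in CD4 ThpokAD, at 2086 to 2920 CPM in CD8 control, and at 13.6 to 25.1 CPM in CD4 control. Their part in the receptor values was not tested. CPM here are counts scaled to a common library size by TMM, a method that sets libraries to a common level through the genes that change least.

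By the tests at an adjusted p under 0.05, the 5 receptors of CD4 ThpokAD cells sorted into 3 patterns. Differences between receptors were not tested, and the Cd28 and Btla results against CD4 control did not hold without some single libraries. Icos and Cd28 were lower than in CD4 control cells and higher than in CD8 control cells. Ctla4 and Pdcd1 did not pass the test against CD4 control and stood 40.3-fold and 16.7-fold above CD8 control. Btla fell 2.29-fold to a level whose libraries overlapped those of CD8 control. Of the 5 members, 3 fell and none rose in CD4 ThpokAD against CD4 control, where 0.928% of all 15738 tested genes were called lower, 1.81% higher and 2.74% in either direction at an adjusted p under 0.05. In CD8 control against CD4 control all 5 fell, where 6.55% of tested genes were called lower, 5.13% higher and 11.7% in either direction. In CD4 ThpokAD against CD8 control 4 rose and none fell, where 4.63% of tested genes were called higher, 1.91% lower and 6.54% in either direction. The median log2 fold change of the 5 members was -0.48, -3.35 and 3.34 in these comparisons, beside 0.00349, 0.0101 and -0.00595 over all tested genes. The 3 comparisons share libraries and are not independent of one another.

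**Figure D1:**
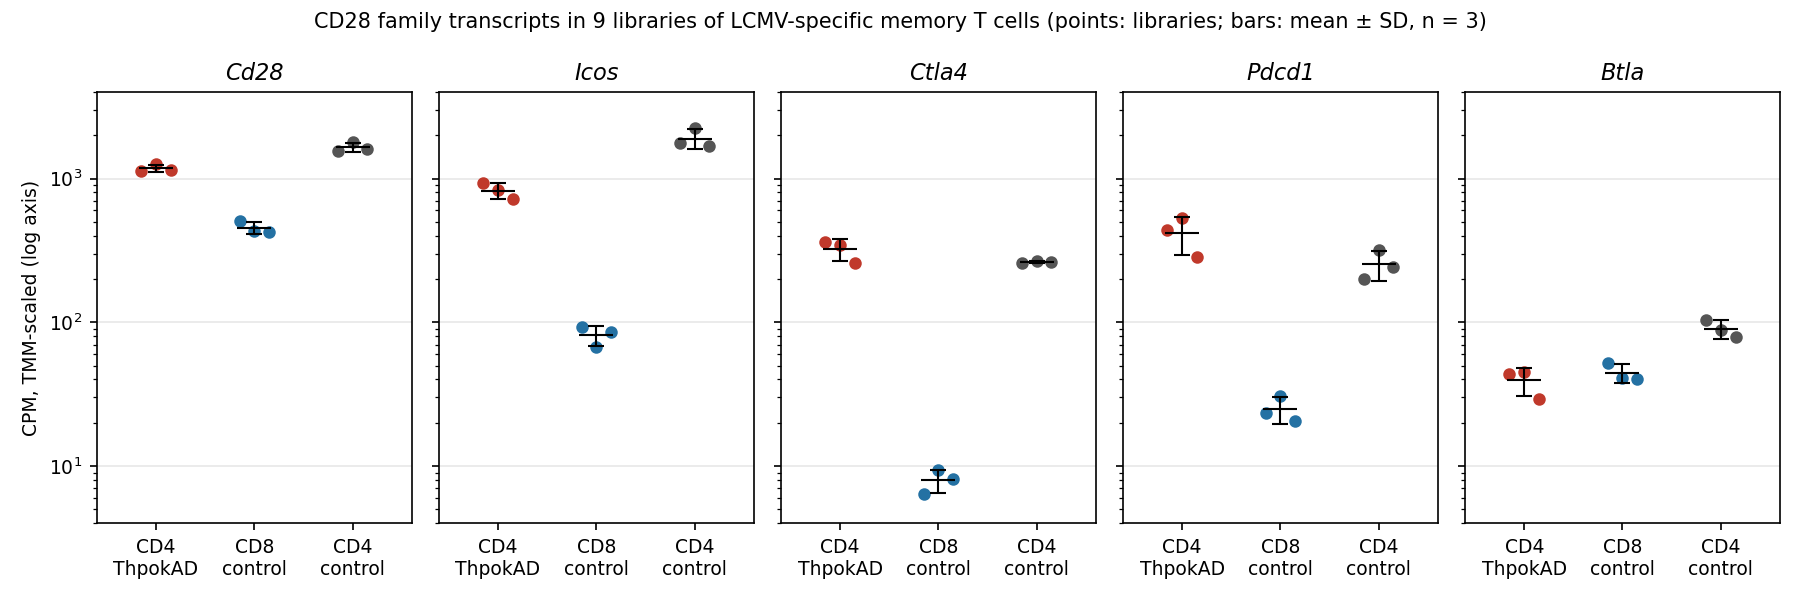
CPM (TMM-scaled, log axis) of the 5 receptors in each library of CD4 ThpokAD, CD8 control and CD4 control, as points, with mean and SD (n = 3) as bars. Cd28 and Icos of CD4 ThpokAD lie between the controls, Ctla4 and Pdcd1 overlap the CD4 control points and lie far above CD8 control, and Btla lies beside the CD8 control points.

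Cd28 (ENSMUSG00000026012.2; mm10 chromosome 1, 60716800 to 60773359, plus strand) is the receptor for CD80 and CD86 that costimulates. It was at 1137, 1255 and 1149.5 CPM in the CD4 ThpokAD libraries, at 506, 433 and 427 CPM in CD8 control, and at 1556, 1784 and 1596 CPM in CD4 control. No library of one group overlapped those of another. The log2 fold change was -0.48 in CD4 ThpokAD against CD4 control (SE 0.10, 95% interval -0.71 to -0.25, quasi-likelihood test of edgeR, Benjamini-Hochberg adjustment over all tested genes, adjusted p = 0.0447), a 1.39-fold lower level. This call was close to the threshold. Leaving out any single CD4 control or CD4 ThpokAD library, or CD8 control replicate 2, ended it (edgeR adjusted p = 0.055 to 0.166), as did dropping the low-count filter (0.107). Cd28 was 3.61-fold lower in CD8 control than in CD4 control (adjusted p = 1.42e-05) and 2.59-fold higher in CD4 ThpokAD than in CD8 control (adjusted p = 0.000101), and both of these calls held whichever library was left out.

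Icos (ENSMUSG00000026009.14; mm10 chromosome 1, 60977927 to 61000320, plus strand) changed more. It was at 924, 833 and 719 CPM in CD4 ThpokAD, at 92.3, 67.1 and 85.5 CPM in CD8 control, and at 1759, 2245 and 1685 CPM in CD4 control, again without overlap between groups. The log2 fold change was -1.20 in CD4 ThpokAD against CD4 control (SE 0.16, 95% interval -1.57 to -0.83, edgeR adjusted p = 0.00624) and -4.54 in CD8 control against CD4 control (SE 0.19, adjusted p = 2.5e-06). Icos of CD4 ThpokAD was 10.1-fold above CD8 control (95% interval 7.66-fold to 13.3-fold, adjusted p = 2.04e-05). None of the 3 calls was lost under any alternative tried, with adjusted p up to 0.0345 against CD4 control. The ratio of Icos to Cd28, each as CPM per kilobase of exon, does not depend on library scaling. It was 1.45, 1.19 and 1.12 in CD4 ThpokAD, 0.326, 0.277 and 0.357 in CD8 control and 2.02, 2.25 and 1.88 in CD4 control. By this length, Icos was above Cd28 in every CD4 library and below it in every CD8 library. In CD4 ThpokAD the order depended on the length used. The union of exons is 6122 bases for Cd28 and 3430 for Icos, and the longest coding transcript 4347 and 3241. Without length scaling, Icos was below Cd28 in each CD4 ThpokAD library (924, 833 and 719 against 1137, 1255 and 1149.5 CPM).

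Ctla4 (ENSMUSG00000026011.13; mm10 chromosome 1, 60887000 to 60915832, plus strand) lies between Cd28 and Icos, 113640 bases from the first and 62094 from the second by gene span. It was at 359, 347 and 257 CPM in CD4 ThpokAD, at 6.40, 9.35 and 8.14 CPM in CD8 control, and at 258, 267 and 264 CPM in CD4 control. The CD4 ThpokAD libraries overlapped those of CD4 control through replicate 3, and the CD8 control libraries were all far below. The log2 fold change against CD4 control was 0.29 (SE 0.17, 95% interval -0.09 to 0.66, edgeR adjusted p = 0.477), so the data leave room for a level between slightly lower and 1.59-fold higher. Against CD8 control, Ctla4 of CD4 ThpokAD was 40.3-fold higher (95% interval 29.4-fold to 55.4-fold, adjusted p = 2.64e-06), the largest difference of any member in any of the comparisons. CD8 control in turn was 33.0-fold below CD4 control (adjusted p = 2.27e-06). The CD8 control libraries held 153, 193 and 330 counts of Ctla4, so the low level there was measured and not at the limit of detection.

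Pdcd1 (ENSMUSG00000026285.7; mm10 chromosome 1, 94038305 to 94052553, minus strand) had the widest spread of the members among CD4 ThpokAD libraries, relative to its mean. It was at 437, 529 and 282 CPM in CD4 ThpokAD, at 23.2, 30.8 and 20.6 CPM in CD8 control, and at 200.4, 317 and 244 CPM in CD4 control. Replicates 1 and 2 of CD4 ThpokAD lay above every CD4 control library and replicate 3 lay below CD4 control replicate 2. The log2 fold change against CD4 control was 0.71 (SE 0.26, 95% interval 0.12 to 1.30, unadjusted p = 0.0233 in edgeR) and was not called after adjustment (adjusted p = 0.221). No alternative called it, with adjusted p of 0.0783 (the Wald test of DESeq2) to 0.491. Against CD8 control it was 16.7-fold higher in CD4 ThpokAD (95% interval 10.5-fold to 26.6-fold, adjusted p = 8.36e-05), and CD8 control was 10.2-fold below CD4 control (adjusted p = 0.000126).

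Ctla4 and Pdcd1 were both low in CD8 control and did not pass the test between the CD4 groups, so the 250 bases before the RefSeq start site of each (GRCm38.p6, the same build as mm10) are given here, 5′ to 3′ on the gene's strand. Capitals mark the core motif of NFAT, a factor activated by calcium signals of the T cell receptor, spelled GGAAA and searched on both strands. The windows are chr1:60908775-60909024 on the plus strand for Ctla4 and chr1:94052554-94052803 on the minus strand for Pdcd1. The Ctla4 window ends just before base 60909025, where the longest protein-coding transcript of GENCODE starts; the gene span given above begins farther upstream because it takes in every annotated transcript.

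Ctla4: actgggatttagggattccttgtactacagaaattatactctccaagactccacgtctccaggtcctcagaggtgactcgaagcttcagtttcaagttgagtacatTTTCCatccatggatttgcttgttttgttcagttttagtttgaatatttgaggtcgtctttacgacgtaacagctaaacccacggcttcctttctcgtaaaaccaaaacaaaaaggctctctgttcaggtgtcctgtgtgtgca

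Pdcd1: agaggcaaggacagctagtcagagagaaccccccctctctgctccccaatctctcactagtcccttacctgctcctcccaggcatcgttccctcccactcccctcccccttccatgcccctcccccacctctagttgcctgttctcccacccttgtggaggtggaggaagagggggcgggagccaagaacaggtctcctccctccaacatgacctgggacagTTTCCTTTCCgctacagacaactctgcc

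The Ctla4 window held 1 such core and the Pdcd1 window 2, and the matching window of Btla held 0. Of 32851 such windows in the RefSeq table, 55.6% held at least 1. The AP-1 motif TGANTCA, found in 6.75% of windows, was in none of these windows. The core motif of Runx factors, TGTGGT, found in 14.0% of windows, had 0 matches for Ctla4 and Pdcd1 and 1 for Btla. These matches describe the letters of the windows only. Promoter sequences were used for 3 of the 5 members.

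Btla (ENSMUSG00000052013.15; mm10 chromosome 16, 45224315 to 45257670, plus strand) binds HVEM and inhibits. It was at 43.5, 45.2 and 29.3 CPM in CD4 ThpokAD, at 52.1, 41.0 and 40.1 CPM in CD8 control, and at 104, 87.7 and 78.4 CPM in CD4 control. The CD4 control libraries lay above all others, and the other 2 groups overlapped. The log2 fold change was -1.20 in CD4 ThpokAD against CD4 control (SE 0.21, edgeR adjusted p = 0.0228) and -1.02 in CD8 control against CD4 control (SE 0.21, adjusted p = 0.0161). The first call did not survive leaving out any CD4 control library, ThpokAD replicate 1 or ThpokAD replicate 3 (adjusted p = 0.0501 to 0.0889). The second did not survive leaving out replicate 1 or 2 of CD4 control or replicate 2 or 3 of CD8 control (adjusted p = 0.0503 to 0.0639). Between CD4 ThpokAD and CD8 control the log2 difference was -0.17 (SE 0.21, 95% interval -0.65 to 0.31, adjusted p = 0.722), an interval that runs from 1.57-fold lower to 1.24-fold higher. Btla is also carried by B cells. The summed level of 10 B cell markers was at 272 to 472 CPM in CD4 ThpokAD, at 252 to 786 CPM in CD8 control, and at 485 to 660 CPM in CD4 control, most of it Ighm. The part of such cells in the Btla values was not tested.

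**Figure D2:**
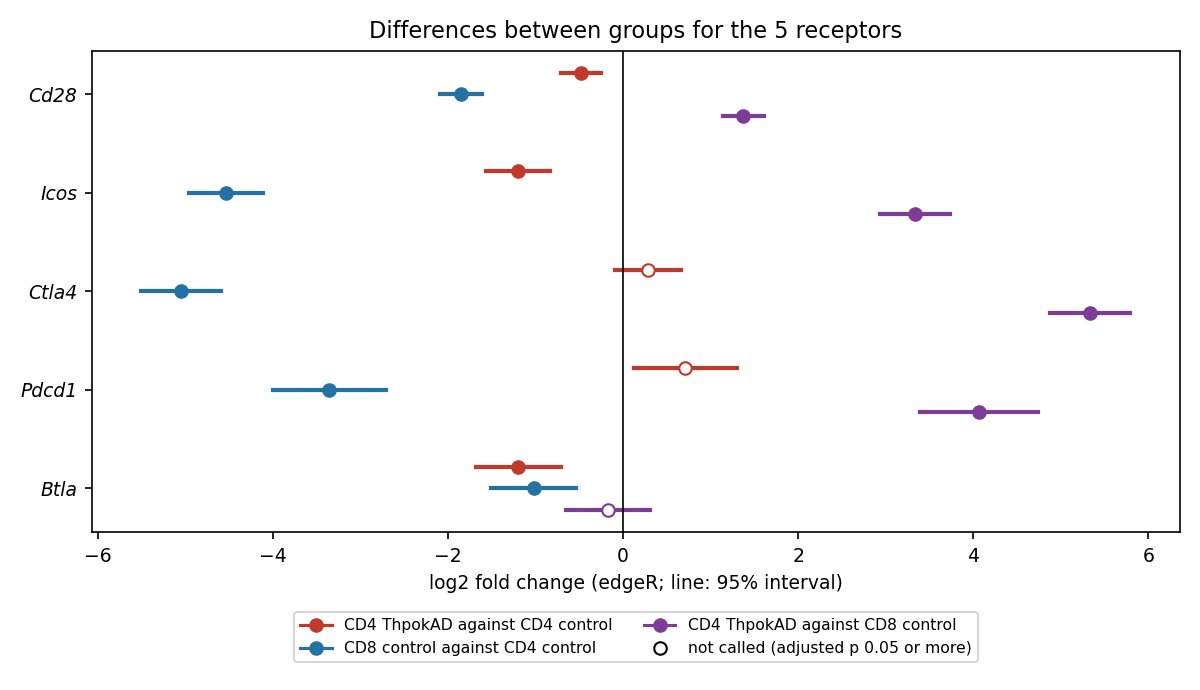
Log2 fold changes of the 5 receptors in the 3 comparisons (edgeR), with 95% intervals as lines and open points where the adjusted p was 0.05 or more. Ctla4 and Pdcd1 against CD4 control and Btla against CD8 control are open, and Ctla4 of CD4 ThpokAD against CD8 control is farthest to the right at 5.33.

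Levels of different receptors were compared as CPM per kilobase of the union of exons, and their order within a group depends on this length. For Cd28 the union is 6122 bases and the longest coding transcript 4347. Without length scaling, the means in CD4 ThpokAD were 1180 CPM for Cd28, 825 for Icos and 416 for Pdcd1, so Cd28 came first. In CD4 ThpokAD the order was Icos (241 ± 30.1, mean ± SD, n = 3), Pdcd1 (216 ± 64.5), Cd28 (193 ± 10.5), Ctla4 (138 ± 24.0) and Btla (11.6 ± 2.56), and the libraries of the first 3 overlapped along the order. In CD8 control it was Cd28 (74.4 ± 7.12), Icos (23.8 ± 3.80), Btla (13.1 ± 1.97), Pdcd1 (12.9 ± 2.74) and Ctla4 (3.42 ± 0.637), with overlap only of Btla and Pdcd1. In CD4 control it was Icos (553 ± 88.6), Cd28 (269 ± 19.8), Pdcd1 (131 ± 30.5), Ctla4 (113 ± 1.97) and Btla (26.5 ± 3.85), with overlap only of Pdcd1 and Ctla4. Btla was thus last in both CD4 groups and level with Pdcd1 in CD8 control, where its own level was lower than in CD4 control.

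The summed level of the 5 receptors was 798 ± 119 CPM per kilobase in CD4 ThpokAD, 128 ± 10.5 in CD8 control and 1092 ± 137 in CD4 control (SD, n = 3). The inhibitory members Ctla4, Pdcd1 and Btla made up 46.4%, 49.3% and 40.0% of this sum in the CD4 ThpokAD libraries. They made up 21.6%, 26.2% and 21.5% in CD8 control and 24.2%, 24.4% and 25.9% in CD4 control. The share was higher in every CD4 ThpokAD library than in any control library, and so it was with the length of the longest coding transcript and without length scaling. A share also rises when other members fall. Against CD4 control, Cd28, Icos (241 against 553 CPM per kilobase) and Btla were called lower, and neither Ctla4 nor Pdcd1 was called higher. The make-up of the remainder of the sum differed between the controls. Cd28 supplied 58.3% of the sum in CD8 control and Icos 18.6%, while in CD4 control Cd28 supplied 24.7% and Icos 50.5%. In CD4 ThpokAD they supplied 24.5% and 30.3%. Per length there were 0.841, 1.13 and 0.698 Pdcd1 transcripts for each Icos transcript in the CD4 ThpokAD libraries, 0.448, 0.816 and 0.428 in CD8 control and 0.202, 0.251 and 0.257 in CD4 control. The lowest CD4 ThpokAD ratio was thus above every CD4 control ratio but below 1 of the CD8 control ratios. The members were chosen with earlier results of these data known, so these shares are a description without a test.

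**Figure D3:**
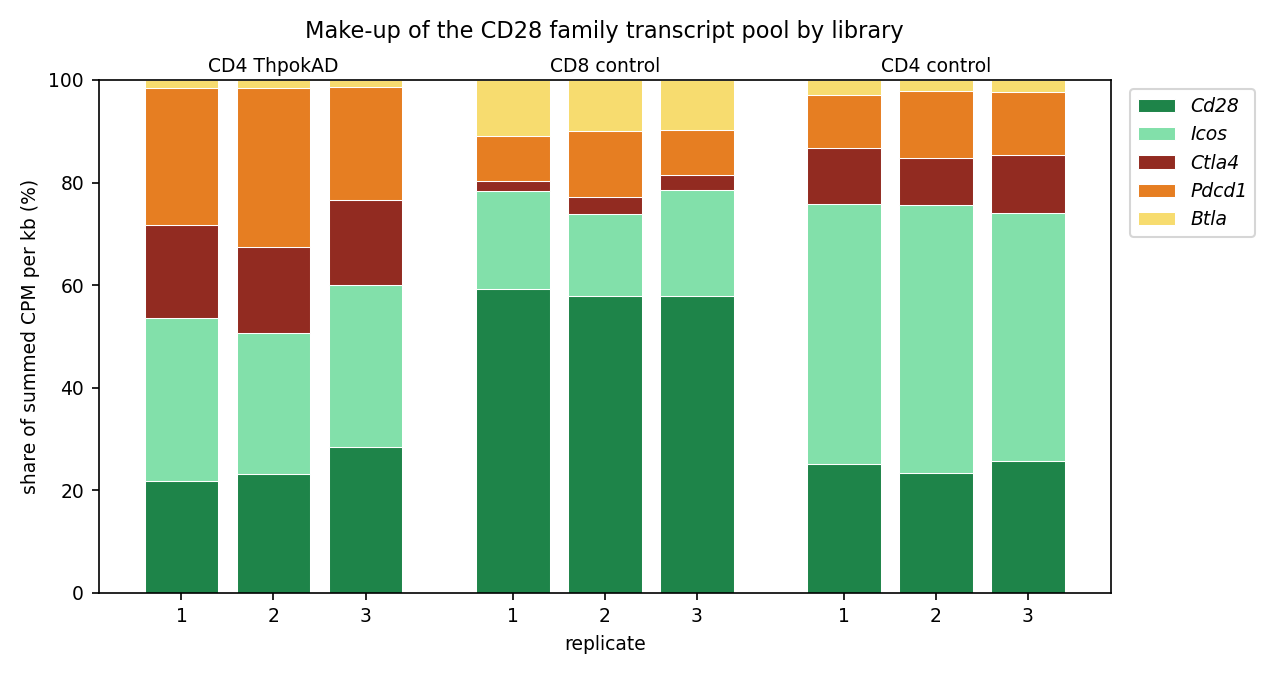
Share of each receptor in the summed CPM per kilobase of the 5 receptors (%), 1 bar per library. The red, orange and yellow parts (Ctla4, Pdcd1, Btla) fill 40.0% to 49.3% of the CD4 ThpokAD bars, 21.5% to 26.2% of the CD8 control bars and 24.2% to 25.9% of the CD4 control bars.

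In sorted bulk samples, fewer cells with a transcript and less of it per cell cannot be told apart. Both regulatory and follicular helper T cells carry much of this family, so their markers were read beside it. The 8 regulatory T cell markers were together at 505, 343 and 362 CPM in CD4 ThpokAD, at 97.9 to 138 CPM in CD8 control, and at 256 to 289 CPM in CD4 control. Of the 8 markers, 2 were called higher and none lower in CD4 ThpokAD against CD4 control, and 4 higher and none lower against CD8 control. Over all tested genes 1.81% were called higher and 0.928% lower in the first comparison, and 4.63% and 1.91% in the second. Foxp3, which defines regulatory T cells, was at 50.1, 11.8 and 25.6 CPM in CD4 ThpokAD, at 0.251, 0 and 0.0247 CPM in CD8 control, and at 0, 4.52 and 2.33 CPM in CD4 control. It was not called against CD4 control by edgeR (adjusted p = 0.207), and limma-trend called it (0.0194). Against CD8 control it was called (adjusted p = 0.0226), a call lost in 5 alternatives (0.0505 to 0.0869). CD4 ThpokAD replicate 2, with the least Foxp3 of its group, had the most Pdcd1 (529 CPM) and a Ctla4 level of 347 CPM, close to the 359 CPM of replicate 1, which had the most Foxp3. The 8 follicular helper markers were together at 333, 473 and 228 CPM in CD4 ThpokAD, at 124 to 165 CPM in CD8 control, and at 581 to 725 CPM in CD4 control. Of these 8 markers, 1 was called lower and none higher in CD4 ThpokAD against CD4 control. In CD8 control, 4 of the 8 follicular markers had no count, among them Il21 and Tox2. Within CD4 ThpokAD, Pdcd1 and the follicular sum were both highest in replicate 2 and lowest in replicate 3. Icos, Ctla4 and Btla were also lowest in replicate 3 of that group. An order over 3 libraries cannot show whether regulatory or follicular helper cells set the level of a receptor. The part of either cell type in the receptor values was not tested.

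The ligands and partners of the family were read in the same T cells, although their main carriers are antigen-presenting cells. In CD4 ThpokAD against CD4 control 2 of the 8 genes rose and none fell, with a median log2 fold change of 1.29. In CD8 control against CD4 control 1 rose and 1 fell (median -0.25), and in CD4 ThpokAD against CD8 control 2 rose and none fell (median 1.41). The shares of all tested genes called higher were 1.81%, 5.13% and 4.63% in these comparisons. The shares called lower were 0.928%, 6.55% and 1.91%. Cd86, a ligand shared by CD28 and CTLA-4, was at 70.5, 67.8 and 43.2 CPM in CD4 ThpokAD, at 24.1, 29.6 and 19.9 CPM in CD8 control, and at 24.2, 19.3 and 20.2 CPM in CD4 control. It was 2.85-fold above CD4 control (edgeR adjusted p = 0.015), a call that ended on leaving out replicate 2 or 3 of CD4 control or replicate 1 or 2 of ThpokAD (adjusted p = 0.0545 to 0.0745). It was 2.47-fold above CD8 control (adjusted p = 0.0159), and 4 left-out libraries ended that call too (0.0522 to 0.0617). Cd160, a further receptor for HVEM, was at 131 ± 14.0 CPM in CD4 ThpokAD, at 104 ± 13.3 CPM in CD8 control, and at 6.98 ± 4.03 CPM in CD4 control (SD, n = 3), and was 18.8-fold and 14.9-fold above CD4 control in the other groups (adjusted p = 0.00113 and 0.000354). HVEM itself (Tnfrsf14) was low, at 10.3 ± 4.79, 2.13 ± 1.16 and 3.48 ± 0.812 CPM in CD4 ThpokAD, CD8 control and CD4 control, and edgeR called it in none of the 3 comparisons. Its adjusted p in edgeR was 0.225 in CD4 ThpokAD against CD4 control, 0.496 in CD8 control against CD4 control and 0.0572 in CD4 ThpokAD against CD8 control. In the last of these it was 4.86-fold higher in CD4 ThpokAD, and DESeq2 (0.00374) and limma-trend (0.0228) called it. So Cd160 was high in both groups in which Btla was low. Markers of NK cells, which cytotoxic T cells share in part, were together at 3491 to 4287 CPM in CD4 ThpokAD, at 3401 to 3514 CPM in CD8 control, and at 655 to 793 CPM in CD4 control. In CD4 ThpokAD most of this sum was Nkg7 and Gzma, at means of 2492 and 1169 CPM. Eomes and Klrb1c were at 94.0 and 69.1 CPM there, and Klra4, Ncr1 and Klra8 at 2.41, 1.79 and 0 CPM. The part of NK cells in the Cd160 values was not tested.

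Cd274, which encodes PD-L1, was at 183, 210 and 117 CPM in CD4 ThpokAD, at 54.2, 49.0 and 64.5 CPM in CD8 control, and at 285, 332 and 281 CPM in CD4 control. It was 3.04-fold higher in CD4 ThpokAD than in CD8 control (edgeR adjusted p = 0.00309) and 5.35-fold lower in CD8 control than in CD4 control (adjusted p = 0.000179). Its log2 fold change of -0.82 in CD4 ThpokAD against CD4 control was not called (adjusted p = 0.0871), though the Wald test of DESeq2 (0.00357) and limma-trend on the authors' scaled table (0.0442) called it. Pdcd1lg2 (PD-L2), Icosl and Cd80 stood at 10.6 ± 4.62, 13.0 ± 4.06 and 14.0 ± 4.40 CPM in CD4 ThpokAD. They stood at 0.523 ± 0.871, 5.53 ± 2.16 and 4.85 ± 4.24 CPM in CD8 control and at 12.2 ± 3.34, 14.0 ± 1.36 and 3.56 ± 0.678 CPM in CD4 control (SD, n = 3), and edgeR called none of the 3 genes in the fit of all 9 libraries, while other fits called some. Cd80 in CD4 ThpokAD against CD4 control had an adjusted p of 0.171 in edgeR, of 0.0395 when the 6 libraries compared were fitted alone and of 0.0415 in DESeq2. In CD8 control against CD4 control, Pdcd1lg2 and Icosl had 0.0568 and 0.0547 in edgeR, 0.000448 and 0.00725 in DESeq2 and 0.00122 and 0.0327 in limma-trend. Between CD4 ThpokAD and CD8 control, Pdcd1lg2 had 0.0901 in edgeR, 0.00135 in DESeq2 and 0.003 in limma-trend, and Icosl had 0.0998 in edgeR and 0.0218 in DESeq2. The 9 markers of dendritic and other antigen-presenting cells were together at 1733, 1717 and 979 CPM in CD4 ThpokAD, at 511, 527 and 430 CPM in CD8 control, and at 763, 1415 and 901 CPM in CD4 control. Cd86 and this sum were both lowest in replicate 3 within CD4 ThpokAD. The 8 markers of macrophages and monocytes were together at 406, 474 and 342 CPM in CD4 ThpokAD, at 133, 302 and 139 CPM in CD8 control, and at 179, 231 and 255 CPM in CD4 control, so CD4 ThpokAD lay above both controls without overlap. Of these 8 markers, edgeR called 1 higher in CD4 ThpokAD against CD4 control and 3 higher against CD8 control, and none lower. Over all tested genes 1.81% and 4.63% were called higher in these comparisons. Csf1r, a growth factor receptor of macrophages, was at 113, 133 and 91.0 CPM in CD4 ThpokAD, at 20.7, 49.8 and 20.3 CPM in CD8 control, and at 24.2, 54.3 and 73.1 CPM in CD4 control. The part of such cells in the ligand values was not tested.

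Of 23 kinases, adaptors and phosphatases that act at the receptor tails, edgeR called none in CD4 ThpokAD against CD4 control (median log2 fold change -0.15). Over all tested genes 2.74% were called there, so a count of none does not set this list apart. At an unadjusted p under 0.05 there were 8, while the Wald test of DESeq2 called 3 and limma-trend 1. Of the 23, 1 rose and 3 fell in CD8 control against CD4 control, beside 5.13% and 6.55% of all tested genes. Bcl10, which links CD28 and the T cell receptor to NF-kB, was 2.26-fold lower (63.8 ± 16.7 against 144 ± 10.9 CPM, adjusted p = 0.00474). Lcp2 and Malt1 fell 1.43-fold and 1.58-fold and Pik3cd, a catalytic subunit of the kinase that CD28 recruits, rose 1.53-fold (adjusted p = 0.0333, 0.0217 and 0.0251), and each of these calls ended when some single library was left out. In CD4 ThpokAD against CD8 control 4 rose and 1 fell, beside 4.63% and 1.91% of all tested genes. Of these calls 1, Pik3r1, held under every alternative. Pik3r1, the regulatory subunit of the kinase that binds the tails of CD28 and ICOS, was at 350.1 ± 18.3 CPM in CD4 ThpokAD, against 144 ± 25.6 CPM in CD8 control (2.43-fold, adjusted p = 0.00568). Akt2, Bcl10 and Ppp2ca also rose, and Prkcq, a kinase of the T cell receptor pathway, fell 1.59-fold (adjusted p = 0.0131).

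Among 11 tested genes for trafficking and surface turnover, edgeR called none in CD4 ThpokAD against CD4 control (median 0.11). The share called over all tested genes was 2.74% there and 6.54% in CD4 ThpokAD against CD8 control, so counts of none do not set this list apart. At an unadjusted p under 0.05 there were 2, and the Wald test of DESeq2 called 1 and limma-trend 0. Nor did edgeR call any of the 11 in CD4 ThpokAD against CD8 control (median 0.08), where 4 had an unadjusted p under 0.05 and those tools called 2 and 1. Of the 11, 2 rose in CD8 control against CD4 control, where 5.13% of all tested genes were called higher. Among them was the adaptor Lax1 (247 ± 14.5 against 128 ± 17.0 CPM, 1.93-fold, adjusted p = 0.00397). The other was Rab8a, whose call was lost under 10 alternatives (adjusted p = 0.0511 to 0.125).

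Of 10 factors that act on receptor mRNAs, none was called in CD4 ThpokAD against CD4 control by edgeR (median -0.36), with 4 at an unadjusted p under 0.05, 2 called by DESeq2 and 1 by limma-trend. Over all tested genes edgeR called 2.74%, so a count of none does not set this list apart either. Rc3h1, which encodes Roquin-1 and speeds the decay of Icos mRNA, was at 80.1 ± 12.8 CPM in CD4 ThpokAD, at 62.6 ± 17.1 CPM in CD8 control, and at 86.3 ± 15.8 CPM in CD4 control (SD, n = 3). It was not called in any comparison (adjusted p = 0.252 to 0.897). In CD8 control against CD4 control 4 of the 10 fell and none rose (median -0.49), beside 6.55% and 5.13% of all tested genes. Zc3h12a, which encodes the ribonuclease Regnase-1, was at 60.6, 65.0 and 91.8 CPM in CD4 ThpokAD, at 7.69, 13.0 and 11.7 CPM in CD8 control, and at 163, 157 and 131 CPM in CD4 control. Zfp36l1, Zfp36 and Ddx6 were the others that fell (4.13-fold, 2.12-fold and 1.72-fold, adjusted p = 0.000392, 0.0139 and 0.0217), and the calls of Zfp36 and Ddx6 each ended without some single libraries. Against CD8 control Zc3h12a was 6.70-fold higher in CD4 ThpokAD (adjusted p = 0.000308), and Zfp36l1, an RNA-binding decay factor, was 3.20-fold higher (adjusted p = 0.00217).

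Of 26 transcription factors reported at these receptor genes, 18 fell and 2 rose in CD8 control against CD4 control (median log2 fold change -1.93). In CD4 ThpokAD against CD8 control 16 rose and 2 fell (median 1.64). Over all tested genes 6.55% fell and 5.13% rose in the first comparison, and 4.63% rose and 1.91% fell in the second. The orphan nuclear receptor Nr4a1, induced by T cell receptor signals, was at 1689.9, 2113 and 2317 CPM in CD4 ThpokAD, at 1.92, 7.36 and 4.41 CPM in CD8 control, and at 2117, 2433.5 and 2358 CPM in CD4 control. Its relatives Nr4a2 and Nr4a3 were at 2.36 ± 0.676 and 1.76 ± 1.40 CPM in CD8 control, against 727 ± 85.6 and 364 ± 103 CPM in CD4 control (SD, n = 3). Junb, an AP-1 subunit, was 10.2-fold lower in CD8 control than in CD4 control (adjusted p = 4.62e-05). Irf4, an activation-induced factor, was at 131 ± 23.5, 3.72 ± 1.98 and 127 ± 7.30 CPM in CD4 ThpokAD, CD8 control and CD4 control (SD, n = 3). Nr4a1 and Irf4 were thus low in CD8 control, where 18 of the 26 factors and all 5 receptors were called lower than in CD4 control. A link between these factors and the receptors was not tested.

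Tox, a chromatin factor known for sustaining Pdcd1 in exhausted CD8 T cells, was at 81.1, 129 and 62.6 CPM in CD4 ThpokAD, at 12.1, 12.2 and 14.7 CPM in CD8 control, and at 69.0, 93.2 and 93.9 CPM in CD4 control. It was 6.99-fold higher in CD4 ThpokAD than in CD8 control (edgeR adjusted p = 0.000599) and was not called between the CD4 groups (adjusted p = 0.926). Its relative Tox2 had no count in CD8 control and stood at 36.1 ± 26.4 CPM in CD4 ThpokAD, against 72.8 ± 7.32 CPM in CD4 control, at least 1030-fold and 2060-fold above a floor of 3 counts over the CD8 group, a bound that covers counting error only. Bcl6, the factor of follicular helper cells, was at 66.3 ± 24.0, 17.5 ± 2.50 and 104 ± 29.8 CPM in CD4 ThpokAD, CD8 control and CD4 control. Maf, a factor of helper T cells, was at 84.3 ± 36.0, 5.03 ± 3.50 and 108 ± 17.1 CPM in the same groups. Neither was called between the CD4 groups (adjusted p = 0.354 and 0.836).

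Between CD4 ThpokAD and CD4 control, 3 of the 26 factors rose and 3 fell (median -0.33), beside 1.81% and 0.928% of all tested genes. Prdm1, which encodes Blimp1, a repressor of Pdcd1 in acute infection, rose 3.74-fold (adjusted p = 0.00429) and Eomes rose 12.4-fold (adjusted p = 0.00169). Tcf7 and Satb1, factors of resting and memory T cells, fell 2.31-fold and 2.24-fold (adjusted p = 0.00468 and 0.00778). The call of Tbx21, which rose, ended on leaving out replicate 1 or 3 of CD4 control or replicate 3 of ThpokAD (adjusted p = 0.0574 to 0.0635), and that of Lef1, which fell, on leaving out any of the 9 libraries (0.0539 to 0.166 over all settings that lost it).

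**Figure D4:**
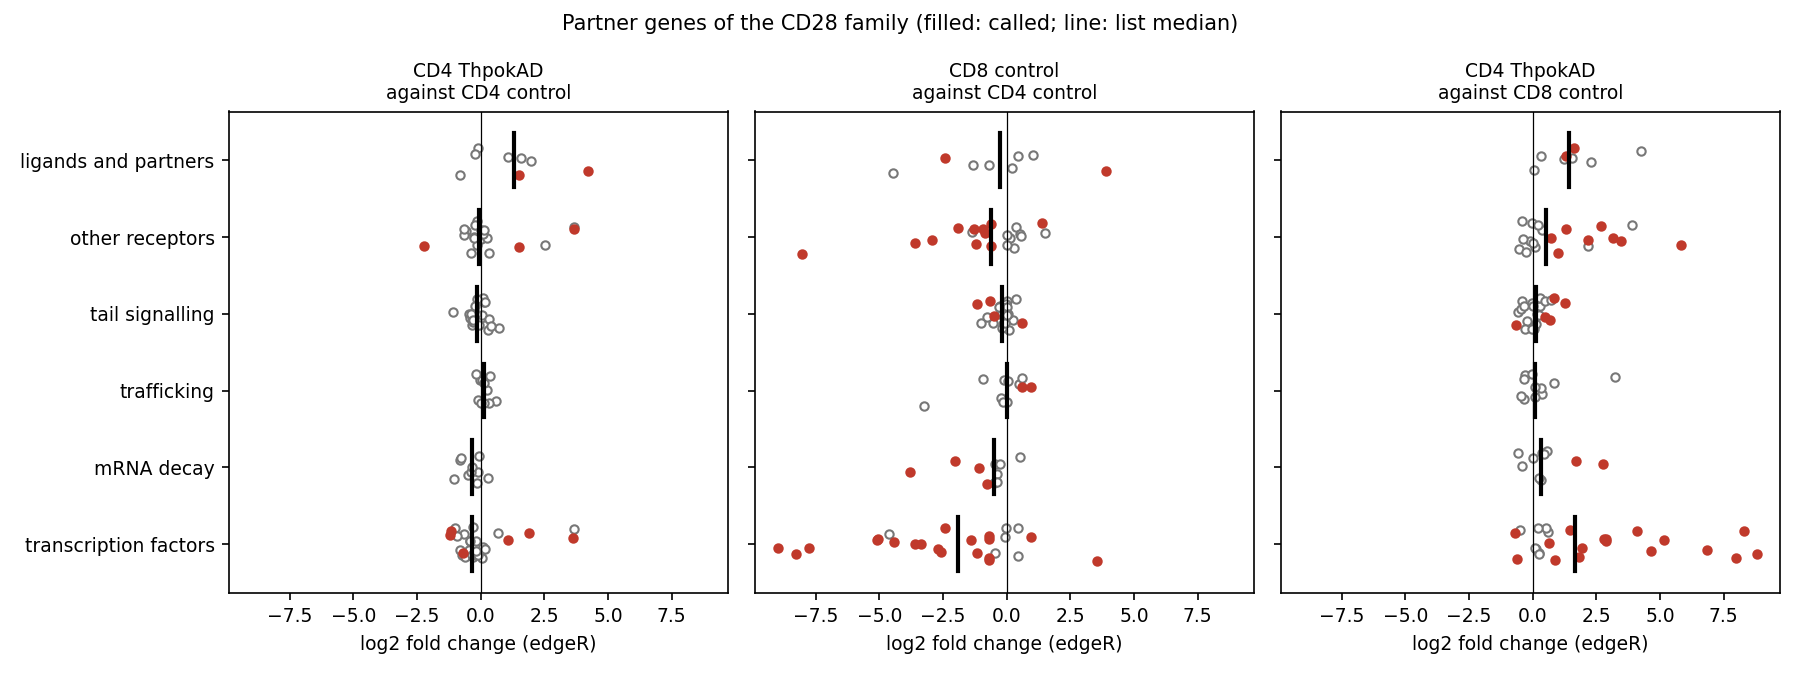
Log2 fold changes (edgeR) of the tested genes of 6 lists around the CD28 family in the 3 comparisons, 1 point per gene, filled where called, with the list median as a line. Tox2, which had no count in CD8 control, is not drawn in the comparisons with that group. Filled points of the transcription factor list lie mostly left of 0 in CD8 control against CD4 control and mostly right of 0 in CD4 ThpokAD against CD8 control.

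Receptors outside the family gave a setting for these values. Of 20 other costimulatory and inhibitory receptors, 2 rose and 1 fell in CD4 ThpokAD against CD4 control (median log2 fold change -0.06). Over all tested genes 1.81% rose and 0.928% fell there. Cd226, an activating receptor, was at 195 ± 20.6 CPM in CD4 ThpokAD, at 183 ± 42.2 CPM in CD8 control, and at 69.2 ± 7.70 CPM in CD4 control and rose 2.82-fold (adjusted p = 0.00437). Havcr2, which encodes the inhibitory receptor TIM-3, was at 115, 73.9 and 33.5 CPM in CD4 ThpokAD, at 9.82, 7.07 and 8.09 CPM in CD8 control, and at 12.2, 1.26 and 3.96 CPM in CD4 control. Its call against CD4 control (adjusted p = 0.0402) ended on leaving out any library except CD4 control replicate 1, and when the 6 libraries compared were fitted alone (adjusted p = 0.0552 to 0.143). The member that fell was Tnfrsf4, the Cre locus (81.1 ± 24.2 against 378 ± 53.3 CPM). Its call (adjusted p = 0.0201) ended on leaving out any CD4 control library or replicate 1 or 3 of ThpokAD (adjusted p = 0.0595 to 0.0928). In CD8 control against CD4 control 10 of the 20 fell and 1 rose (median -0.63), beside 6.55% and 5.13% of all tested genes. In CD4 ThpokAD against CD8 control 8 rose and none fell (median 0.53), beside 4.63% and 1.91%. Tigit, which competes with Cd226 for its ligands, was at 109 ± 31.7 CPM in CD4 ThpokAD, at 9.76 ± 1.00 CPM in CD8 control, and at 119 ± 11.8 CPM in CD4 control, and was 11.1-fold higher in CD4 ThpokAD than in CD8 control (adjusted p = 6.76e-05). Cd5 and Slamf1 fell 2.33-fold and 2.46-fold in CD8 control against CD4 control (adjusted p = 0.00046 and 0.000561).

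For each receptor the genes with the most similar profile were sought among 9016 genes averaging 5 CPM or more. Predicted genes, pseudogenes, segments of T cell receptor and antibody genes and the members had been left out of these. Likeness was the root mean square difference, over the 9 libraries, of log2 CPM after each gene's own mean was subtracted. For Cd28, which itself varied by 0.791 on this scale, the closest were Amd2 (0.126), the ubiquitin ligase gene Rnf125 (0.131) and Cytip (0.145). Amd2 was low, at means of 6.21 CPM in CD4 ThpokAD, 2.45 CPM in CD8 control and 8.26 CPM in CD4 control. Rnf125 was at 444 ± 27.8, 159 ± 8.87 and 616 ± 49.8 CPM in CD4 ThpokAD, CD8 control and CD4 control (SD, n = 3). For Icos, which varied by 1.93, they were the transcriptional repressor Tgif1 (0.241), the NF-kB regulator Nfkbiz (0.314) and Odc1 (0.352), the first enzyme of polyamine synthesis. Tgif1 was at 403 ± 32.0, 38.3 ± 1.503 and 743 ± 53.0 CPM in the same groups.

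For Ctla4, which varied by 2.45, they were the kinase Sik1 (0.313), the NF-kB inhibitor Tnfaip3 (0.333) and the phosphatase Dusp1 (0.476). Tnfaip3 was at 4450.4 ± 634, 125 ± 40.3 and 5218 ± 113 CPM in CD4 ThpokAD, CD8 control and CD4 control. For Pdcd1, which varied by 1.79, they were the AP-1 subunit Fosl2 (0.372), the repressor Bhlhe40 (0.387) and Tigit (0.390). Bhlhe40 was at 2419.9 ± 216, 139.8 ± 17.0 and 1365 ± 64.9 CPM in the same groups. For Btla, which varied by 0.572, they were Mif4gd (0.138), the adaptor Cd2ap (0.163) and Ccdc64 (0.170). Mif4gd was at 84.3 ± 11.1, 82.8 ± 5.45 and 186 ± 18.6 CPM in the same groups. Among the members themselves, Cd28 and Btla differed by 0.669, the smallest value of any pair. This was more than the 0.572 by which Btla itself varied, so the small value does not make their profiles alike. Ctla4 and Pdcd1 differed by 0.760, less than the 2.45 and 1.79 by which they varied themselves. Icos and Pdcd1 differed by 0.838, and Ctla4 and Btla by 2.34, the largest value. Libraries of 1 group share their cells' lineage and genotype, so these values describe the 3 group levels more than 9 separate observations.

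On chromosome 1, Cd28, Ctla4 and Icos lie within 283521 bases on the same strand. In CD4 ThpokAD against CD4 control Cd28 and Icos fell, and Ctla4, between them, had a log2 fold change of 0.29 that was not called; the difference between these genes was not tested. No exon of another annotated gene overlapped the exons of the 5 members. Of the rows next to the members, Neu4 and Gm38137 had no count in any library, Eif4a-ps4, a pseudogene 11651 bases from Cd28 that may share reads with its parent gene, was at 105 to 245 CPM, and Gm11582, between Ctla4 and Icos, was at 0.171 to 0.962 CPM. Cd200, which encodes the ligand of an inhibitory receptor, lies 124465 bases from Btla. It was at 16.2 to 31.0 CPM in CD4 ThpokAD, at 0.291 to 2.88 CPM in CD8 control, and at 21.4 to 26.0 CPM in CD4 control, an order unlike that of Btla.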

How the data were processed

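Per the labels' protocols, a low-input amplification kit that leaves strand unmarked was used, and paired ends were read. Tools named in the submitters' processing notes are STAR, HTSeq, Trimmomatic, bcl2fastq 2.17 and DESeq2, with mm10 as build and no roles; which annotation and strand setting were used is not given in the sources used here. Of the files, the authors' main deposited table gives raw counts, 1 row per gene symbol. Their second deposited table gives a scaled signal, equal to those counts times 1 factor per library, and served 1 alternative.

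Genes were filtered with filterByExpr (minimum count 10, minimum total 15) and tested with edgeR 4.0.16 in R 4.3.3 (TMM scaling, glmQLFit and glmQLFTest, 1 coefficient per group, all 9 libraries in 1 fit). The Benjamini-Hochberg adjustment ran over all 15738 genes and a gene was called at an adjusted p under 0.05. Standard errors are the log2 fold change over the square root of F, and 95% intervals use the t distribution with the test's degrees of freedom. The fit was tested on simulated data with known log2 changes of 1 and 2 in either direction. In CD4 ThpokAD against CD4 control it called 30.85% of the first and 58.95% of the second. Against CD8 control it called 24.47% and 63.16%, so a gene that was not called may still differ. Replicate libraries differed by more than counting noise (chi-square per degree of freedom 32.3 to 147). Exon lengths and coordinates came from GENCODE M21 of the same build. Alternatives were other scalings, no filter, DESeq2 1.42.0, limma 3.58.1, the 6 libraries compared alone, a replicate block, and each library left out.

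The members and lists were chosen with earlier results of these data known. Named were the 5 members, up to 4 called genes per list with the smallest adjusted p, set ligands and factors, the 3 genes of most similar profile per member (prior count 2) and the adjacent rows; further genes were named after their values were seen. Of the 100 listed names 99 had a row.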

Additional observations from a re-analysis of the deposited data

How the results depend on the processing

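Over 16 alternatives, all 240 values of the 5 members in the 3 comparisons kept their direction and 222 also their side of the threshold. The exceptions were Cd28 in CD4 ThpokAD against CD4 control and Btla in both comparisons with CD4 control. The Cd28 call was lost without the low-count filter (adjusted p = 0.107), and its adjusted p ranged from 0.0357 to 0.166 as single libraries were left out. The adjusted p of Btla ranged from 0.0318 to 0.0889 in CD4 ThpokAD and from 0.0104 to 0.0639 in CD8 control, both against CD4 control. With a library left out, the filter also passed more genes and fewer libraries estimated the spread.

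Deviations from the group means of same-numbered libraries correlated at -0.0454 to 0.0621, and those of differently numbered libraries at -0.0475 to 0.0316. With 3 libraries a group, these values cannot show whether the replicate numbers of the titles pair the libraries. A block for replicate number ended the Cd28 call (adjusted p = 0.0974), ended no other call of a member, and 281, 1461 and 684 genes were called in CD4 ThpokAD against CD4 control, CD8 control against CD4 control and CD4 ThpokAD against CD8 control, against 431, 1839 and 1030 without it. DESeq2 called 1292, 2979 and 2176 genes in the same order, and limma-trend called 755 in the first. Leaving out single libraries gave 181 to 477, 1058 to 1667 and 589 to 788.

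The inhibitory share with the longest coding transcript was 42.4% in CD4 ThpokAD, 19.2% in CD8 control and 23.5% in CD4 control, and without length scaling 27.6%, 12.6% and 14.7%.

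Of the 11, 43 and 35 list genes called in the 3 comparisons, 6, 30 and 23 were called under every alternative. Alternatives for single list genes were run only for called genes and the set ligands and factors; among these, the log2 fold changes of 5 genes that were not called changed sign when 1 library was left out. In CD4 ThpokAD against CD4 control these were Icosl without ThpokAD replicate 1 (adjusted p = 0.954, range 0.831 to 0.992 over left-out libraries), Pdcd1lg2 without ThpokAD replicate 3 (0.998, range 0.895 to 0.998), Rc3h1 without CD4 control replicate 2 (0.985, range 0.76 to 0.985) and Tox without CD4 control replicate 1 (0.987) or ThpokAD replicate 2 (0.686). In CD8 control against CD4 control it was Cd80 without CD8 control replicate 3 (0.613, range 0.347 to 0.865). The cause was not tested. Depth did not limit the members, the lowest count being 153.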
